A study of Mus musculus with 4 samples.

Results

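Matrix metalloproteases (MMPs) and their tissue inhibitors (TIMPs) were followed in cultured mouse breast cancer cells grown without or with asparagine. The group held 9 genes, the MMP genes Mmp2, Mmp3, Mmp9, Mmp10, Mmp13 and Mmp14 and the inhibitor genes Timp1, Timp2 and Timp3, out of 23481 genes in the deposited count table, and they were taken by gene symbol. The list was chosen by earlier fold changes between these same 4 libraries, and so their differences between the groups are given as a description, and a count past a threshold appears only beside its share over all genes. The cells were 4T1-T, a clone derived from 4T1, a mouse mammary carcinoma line, and Asns, the gene for asparagine synthetase, had been silenced in every library of both groups. There were 2 libraries, called A and B, from cells grown in DMEM without asparagine and 2 from cells grown in DMEM with asparagine. The labels do not say whether separate cultures were used, and p-values therefore measure only the spread between these libraries, which may be technical. The silencing construct and the time in each medium were not given in the sources used here.

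MMPs are zinc-dependent endopeptidases that cut proteins of the extracellular matrix and of the cell surface. Most are secreted as inactive proenzymes, and a few are anchored in the cell membrane. TIMPs are secreted proteins that block the active site of MMPs, so the balance between both families is thought to set how much matrix is cut. In mammary tumours both families are known for roles in invasion, in the release of growth factors and in the remodelling of the stroma.

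Reads assigned to genes numbered 17977552 and 22581543 in the asparagine-free libraries A and B, against 23867011 and 30260582 in A and B with asparagine. Levels are given as CPM (counts scaled to library size), using gene totals adjusted by TMM. Library A without asparagine stood apart. Reads that the counting assigned to no annotated feature were 56.6% of its total and 47.4% of that of asparagine-free library B, against 49.3% and 46.3% for the pair with asparagine. The ribosomal RNA gene Rn45s took 3.53% and 1.66% of gene counts without asparagine, against 0.884% and 1.18% with it, and the part of these shares in the results was not tested. Across tested genes, the Spearman correlation of library A without asparagine was 0.991 with library B of its own group. It was 0.985 with each library with asparagine, against 0.998 between the libraries with asparagine. Asparagine-free library B was closer to the pair with asparagine, at 0.992 (A) and 0.993 (B), than to library A of its own group. All 10 markers of mammary carcinoma cells were detected, with summed levels of 1036 and 1014 CPM without asparagine and 836 and 928 CPM with it. Of the 10, 8 were higher in both libraries without asparagine than in both with it, as were 26.1% of all genes tested. Krt18 overlapped between the groups, and Krt8 was lower in both libraries without asparagine. Epcam and Esrp1 passed the edgeR test as higher, as did 0.771% of all genes tested. Asns had 75.0 and 89.2 CPM without asparagine and 103 and 101 CPM with it, and no unsilenced library was analysed here.

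Of the 9 genes, 8 passed the filter on low counts. Mmp2 did not. Among the 8, Mmp3 was the gene furthest below its level with asparagine and Mmp9 the gene furthest above it. These 2 were past the threshold of the edgeR quasi-likelihood test across all genes (adjusted p threshold 0.05), where 1.85% of all 12843 genes tested were. That is 1 gene higher, against 0.771% of all genes, and 1 lower, against 1.07%. In 5 of the 8, both libraries of a group lay above both of the other group, which held for 52.5% of all genes tested. In 2 of them the asparagine-free libraries were the higher ones, as in 26.1% of all genes, and in 3 the lower ones, as in 26.4%. The median log2 fold change, without minus with asparagine, was -0.17 over the 8 genes and 0.01 over all genes tested. Nothing about the list is read from these counts.

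The promoter sequences of the stromelysin and collagenase genes are shown first, because those with enough reads to compare in the chromosome 9 cluster hold the same pair of short elements just before their starts. The AP-1 element, bound by dimers of Fos and Jun proteins, is a known element of several MMP promoters. The 150 bases before the RefSeq start are printed 5′ to 3′ on the strand of the gene (GRCm38.p6), with capitals for the AP-1 element TGAGTCA on either strand and for TATAAA on the strand of the gene. The genes Mmp3 (chr9:7445672-7445821, plus strand), Mmp10 (chr9:7502192-7502341, plus strand) and Mmp13 (chr9:7272364-7272513, plus strand) belong to the 9 genes. Mmp1a (chr9:7463991-7464140, plus strand) and Mmp1b (chr9:7388027-7388176, minus strand) are neighbours in the same cluster.
Mmp3: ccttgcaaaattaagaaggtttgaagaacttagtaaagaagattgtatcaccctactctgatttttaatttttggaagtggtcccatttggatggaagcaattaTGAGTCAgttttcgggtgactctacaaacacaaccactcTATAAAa
Mmp1a: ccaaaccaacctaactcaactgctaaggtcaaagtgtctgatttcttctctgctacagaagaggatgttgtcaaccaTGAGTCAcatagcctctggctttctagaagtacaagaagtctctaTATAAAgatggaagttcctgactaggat
Mmp1b: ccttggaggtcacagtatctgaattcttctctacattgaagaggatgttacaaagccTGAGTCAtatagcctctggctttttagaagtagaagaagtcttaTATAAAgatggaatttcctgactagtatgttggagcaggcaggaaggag
Mmp10: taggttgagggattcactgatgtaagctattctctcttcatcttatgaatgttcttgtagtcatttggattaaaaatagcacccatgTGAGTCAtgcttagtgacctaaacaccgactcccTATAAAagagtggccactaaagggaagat
Mmp13: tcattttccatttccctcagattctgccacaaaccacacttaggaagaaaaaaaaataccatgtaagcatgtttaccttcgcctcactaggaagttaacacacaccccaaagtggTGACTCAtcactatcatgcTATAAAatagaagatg

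RefSeq promoters were matched for 7 of the 9 genes, all but Mmp2 and Mmp9. The AP-1 element was found in 2.84% and TATAAA in 4.84% of the 32851 promoter windows of this length. Both were found in the windows of Mmp3, Mmp10 and Mmp13, and neither was found in those of Mmp14, Timp1, Timp2 and Timp3. Counted from the RefSeq start, with -1 as the base before it, the AP-1 element lay at -46 to -40 in Mmp3, at -63 to -57 in Mmp10 and at -35 to -29 in Mmp13. TATAAA lay at -7 to -2 in Mmp3, at -29 to -24 in Mmp10 and at -16 to -11 in Mmp13. All these distances depend on the annotated start, which was not checked here. The PEA3 motif of ETS factors (AGGAAG, either strand, in 19.7% of windows) was found in Mmp13, at -109 to -104 and at -62 to -57, and once in Timp1. The RUNX motif (AACCACA, either strand, 2.61% of windows) was found in Mmp13 at -119 to -113. An NF-kB motif (either strand, 0.925% of windows) was found in none of the 7. The matches did not overlap each other in these windows. A match is a string of letters, not a measured binding site.

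Mmp3 encodes stromelysin-1, which cuts laminin, proteoglycans and E-cadherin and activates other MMP proenzymes. In the asparagine-free libraries A and B, Mmp3 had 30.2 and 27.8 CPM, against 96.5 and 89.8 CPM with asparagine, from 554, 621, 2296 and 2693 reads. Both libraries without asparagine were far below both with it, and the libraries within each group lay close together. The group means were 29.0 ± 1.71 CPM without and 93.2 ± 4.71 CPM with asparagine (SD, n = 2 each). On the log2 scale the difference was -1.69 ± 0.11 (SE), and it lay between -1.75 and -1.63 with any 1 library left out. The gene lies on chromosome 9 from 7445822 to 7455975 on the plus strand (GENCODE M21, GRCm38).

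Mmp10 encodes stromelysin-2, the closest relative of Mmp3 among these genes. Mmp10 had 7.30 and 7.16 CPM without asparagine, against 10.003 and 9.24 CPM with asparagine. The groups did not overlap, with a log2 fold change of -0.41 ± 0.15 (SE). The transcripts of Mmp3 and Mmp10 shared 140 words of 50 bases, which is 7.99% of the words of Mmp3 and 8.37% of those of Mmp10. Reads from those stretches could come from either gene, and their part in the Mmp10 values was not tested. Mmp10 lies on chromosome 9 from 7502352 to 7510240.

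Mmp13 encodes collagenase-3, which cuts fibrillar collagens. Mmp13 had 3.92 and 4.61 CPM without asparagine, against 5.30 and 4.47 CPM with asparagine. The groups overlapped, and the log2 fold change was -0.19 ± 0.20 (SE). Mmp13 lies on chromosome 9 from 7272514 to 7283331.

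Mmp9 encodes gelatinase B, which cuts denatured collagen and the type IV collagen of basement membranes. In the asparagine-free libraries A and B, Mmp9 had 29.5 and 45.7 CPM, against 15.9 and 16.7 CPM with asparagine, from 541, 1022, 378 and 500 reads. Both libraries without asparagine were above both with it, and library B was well above library A of the same group. The means were 37.6 ± 11.5 CPM without and 16.3 ± 0.560 CPM with asparagine (SD, n = 2 each). On the log2 scale the difference was 1.21 ± 0.21 (SE). The fold change was 1.49 with asparagine-free library A left out and 0.85 with asparagine-free library B left out. It was 1.17 and 1.24 with library A or library B with asparagine left out. The gene lies on chromosome 2 from 164940780 to 164955850 on the plus strand.

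Mmp2 encodes gelatinase A, the other type IV collagenase. It had 6 and 9 reads without asparagine and 10 and 4 reads with asparagine, or 0.327 and 0.403 CPM against 0.420 and 0.133 CPM. The gene was near its detection limit in every library, since 3 reads in a library corresponded to between 0.100 and 0.164 CPM. Mmp2 did not pass the filter on low counts, and a difference was not tested. It lies on chromosome 8 from 92827291 to 92853420.

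Mmp14 encodes a membrane-anchored protease that cuts fibrillar collagen at the cell surface and activates the Mmp2 proenzyme. Mmp14 had 83.4 and 90.1 CPM without asparagine, against 85.4 and 97.1 CPM with asparagine. The groups overlapped, and the log2 fold change of -0.07 ± 0.11 (SE) was smaller than its error. Without library B with asparagine it was 0.019. Mmp14 lies on chromosome 14 from 54431612 to 54445364.

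**Figure D1:**
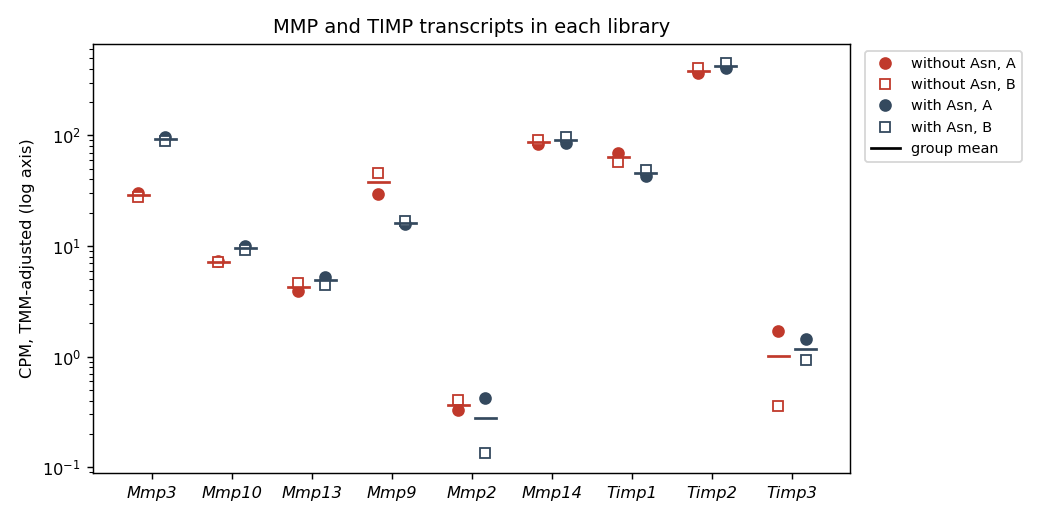
Level of the 9 genes in CPM on a log axis, with 1 point for each library (circles for A, squares for B) and a line for each group mean. Mmp3 lies near 30 CPM in both libraries without asparagine and above 89 CPM in both with it, Mmp9 lies higher without asparagine, and the groups overlap for Mmp13, Mmp2, Mmp14 and Timp3.

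Timp1 encodes a secreted inhibitor that also binds the Mmp9 proenzyme and inhibits membrane-anchored MMPs poorly. Timp1 had 70.0 and 57.9 CPM without asparagine, against 42.7 and 49.2 CPM with asparagine. Both libraries without asparagine were above both with it, by a log2 fold change of 0.48 ± 0.14 (SE). It was 0.33 with asparagine-free library A left out and 0.60 with asparagine-free library B left out. Timp1 lies on chromosome X from 20870166 to 20874735, inside Syn1 on the opposite strand, with no exon bases in common.

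Timp2 encodes an inhibitor that also bridges the Mmp2 proenzyme to Mmp14. Timp2 had 366 and 404 CPM without asparagine, against 407 and 447 CPM with asparagine. It was the gene with the highest level of the 9, both in CPM and per length. The groups did not overlap, but library B without and library A with asparagine differed by little, and the log2 fold change was -0.15 ± 0.11 (SE). With asparagine-free library B left out the fold change was -0.23. Timp2 lies on chromosome 11 from 118301069 to 118355740 on the minus strand.

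Timp3 encodes an inhibitor that stays bound to the matrix and also blocks ADAM and ADAMTS proteases. Timp3 had 31 and 8 reads without asparagine and 34 and 28 reads with asparagine, or 1.69 and 0.358 CPM against 1.43 and 0.934 CPM. The gap between the asparagine-free libraries was wider than that between the group means. The log2 fold change of -0.24 ± 0.63 (SE) was -1.69 with asparagine-free library A left out. It was 0.54 with asparagine-free library B left out and 0.089 with library A with asparagine left out. In GENCODE M21, 21.3% of the exon bases of Timp3 overlap exons of Syn3 on the opposite strand, and Syn3 had 15.6 and 12.0 CPM without and 14.9 and 13.3 CPM with asparagine. The use of strand in counting is not given in the sources used here, so reads from the shared stretch could be assigned to either gene or to none. Timp3 lies on chromosome 10 from 86300372 to 86349506.

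**Figure D2:**
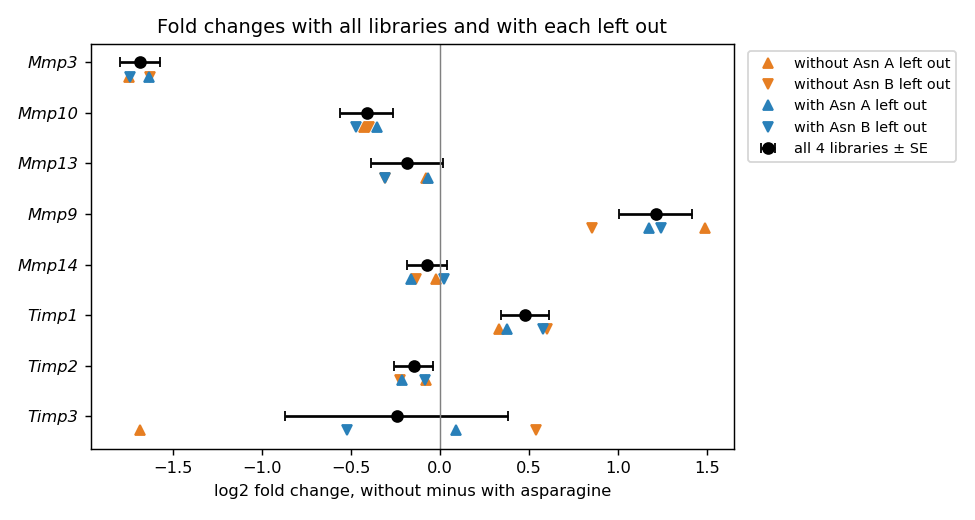
Log2 fold change without minus with asparagine for the 8 genes that passed the filter. Black points with bars show all 4 libraries ± SE, and triangles show fits with 1 library left out. Mmp3 stays near -1.69 throughout, Mmp9 spans 0.85 to 1.49, and Timp3 spans -1.69 to 0.54.

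Levels of different genes were compared per length, as CPM per kilobase of merged GENCODE exons. Without asparagine the order was Timp2 at 98.9 ± 6.93, Timp1 at 72.0 ± 9.65, Mmp3 at 16.1 ± 0.9498, Mmp14 at 14.6 ± 0.787, Mmp9 at 10.6 ± 3.24, Mmp10 at 4.20 ± 0.0604 and Mmp13 at 1.60 ± 0.181 (SD, n = 2). Timp3 at 0.126 ± 0.116 and Mmp2 at 0.108 ± 0.0158 came last and did not differ beyond their spread. With asparagine Timp2 stood at 110 ± 7.19, and Mmp3 at 51.7 ± 2.62 and Timp1 at 51.7 ± 5.15 shared the next place. Mmp14 at 15.3 ± 1.39, Mmp10 at 5.59 ± 0.313, Mmp9 at 4.60 ± 0.158, Mmp13 at 1.83 ± 0.218, Timp3 at 0.145 ± 0.0430 and Mmp2 at 0.0821 ± 0.0602 followed, the last pair again within their spread. Without asparagine Mmp3, at 16.8 and 15.4, lay just above Mmp14, at 14.0 and 15.1, while with asparagine Mmp3 and Timp1 overlapped.

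The make-up of the MMP transcripts followed from these values. Summed per length over all 23 Mmp genes in the table, the level was 54.9 and 58.0 without asparagine, against 92.8 and 89.9 with asparagine. Mmp3 made up 30.5% and 26.6% of that sum without asparagine, against 57.7% and 55.5% with asparagine. Mmp9 made up 15.2% and 22.3% without asparagine, against 4.84% and 5.24% with asparagine, and Mmp14 25.5% and 26.1% against 15.5% and 18.1%. These shares restate the differences of Mmp3 and Mmp9 on another scale and add no independent evidence.

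**Figure D3:**
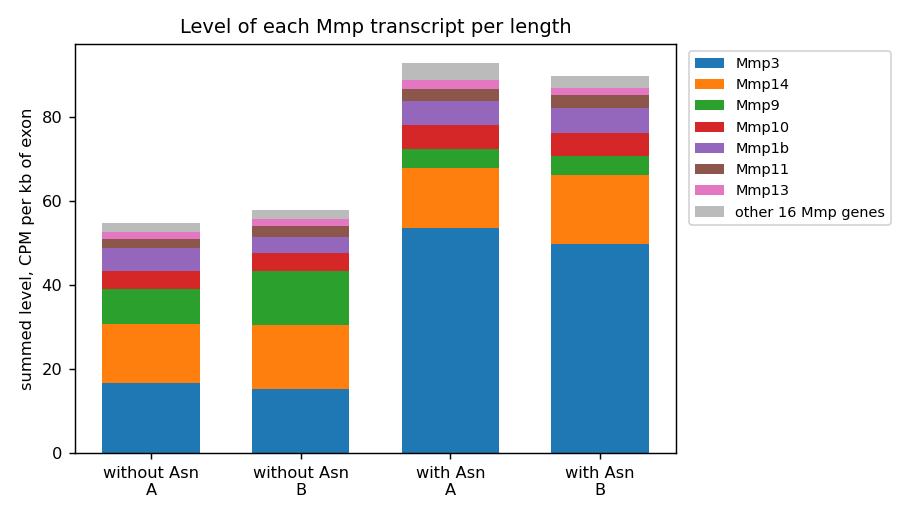
Stacked bars of the per-length level of Mmp transcripts in each library, in CPM per kilobase of exon, with 7 genes drawn apart and the other 16 pooled. The blue part, Mmp3, is 16.8 and 15.4 without asparagine and 53.6 and 49.9 with it, and the green part, Mmp9, is larger without asparagine.

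Ratios of genes within a library do not depend on how libraries are scaled. Per length, Mmp3 over Mmp9 was 2.01 and 1.19 without asparagine, against 11.9 and 10.6 with asparagine. Mmp3 over Timp1 was 0.213 and 0.236 without asparagine, against 1.11 and 0.901 with it. Mmp9 over Timp1 was 0.106 and 0.198 without asparagine, against 0.0934 and 0.0851 with it, so Mmp9 was above both libraries with asparagine relative to Timp1 too, by little in library A. Mmp14 over Timp2, the pair that acts on the Mmp2 proenzyme, was 0.149 and 0.146 without asparagine, against 0.137 and 0.142 with it. The 6 MMP genes over the 3 TIMP genes came to 0.259 and 0.293 without asparagine, against 0.526 and 0.458 with it, with Mmp3 and Timp2 as the largest terms.

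Mmp3, Mmp10 and Mmp13 belong to a cluster of 10 MMP genes that spans 427 kb of chromosome 9. In order of position these are Mmp13, Mmp12, Mmp1b, Mmp3, Mmp1a, Mmp10, Mmp8, Mmp27, Mmp20 and Mmp7, and 5 of them passed the filter. Mmp1a, the gene next to Mmp3, had 1.69 and 1.39 CPM without asparagine, against 5.21 and 3.27 CPM with asparagine. Its groups did not overlap, and its log2 fold change of -1.46 ± 0.31 (SE) was the nearest in the cluster to that of Mmp3 but missed the threshold (edgeR adjusted p = 0.0788, between 4.08e-06 and 0.111 over the alternatives that kept all libraries). Mmp1b, on the other side of Mmp3 and on the opposite strand, had 8.18 and 5.77 CPM without asparagine and 8.03 and 8.64 CPM with it, with a log2 fold change of -0.27 ± 0.20 (edgeR adjusted p = 0.511).

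The flanking genes outside the cluster, Dcun1d5 and Tmem123, had log2 fold changes of 0.08 ± 0.10 and -0.02 ± 0.10 (SE). The 5 tested genes of the cluster were all below 0, as were 6245 of all 12843 genes tested. They ran from -1.69 for Mmp3 to -0.19 for Mmp13, and the groups overlapped for Mmp13 and Mmp1b. Mmp1a and Mmp1b encode the mouse relatives of interstitial collagenase, and GENCODE M21 lists Mmp1a as a polymorphic pseudogene. The transcripts of Mmp1a and Mmp1b shared 165 words of 50 bases, 8.15% of those of Mmp1a and 11.8% of those of Mmp1b, so their reads may be split between them. The AP-1 element and TATAAA printed above occur before all 5 of these genes, and a part of these elements in the differences was not tested. They also occur in 1 of the 2 windows of Mmp7, which had 0 reads in every library. Of the other genes of the cluster, Mmp12 held the AP-1 element in 1 of its 2 windows and Mmp20 held TATAAA, and Mmp8 and Mmp27 held neither. Mmp1a and the cluster were looked at after their values were known.

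**Figure D4:**
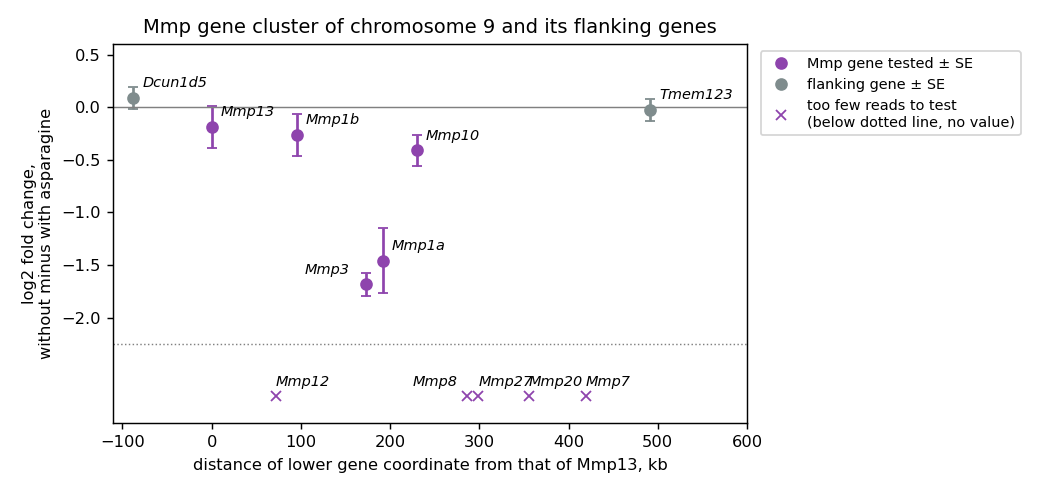
Log2 fold change without minus with asparagine ± SE of the Mmp genes of the chromosome 9 cluster and its flanking genes, against the distance of each gene's lower coordinate from that of Mmp13 in kb. Mmp3 and its neighbour Mmp1a lie at -1.69 and -1.46, the other 3 tested Mmp genes between -0.41 and -0.19, and crosses mark 5 genes with too few reads to test.

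The other 18 genes of both families were mostly at low levels. Of these, 8 passed the filter, with a median log2 fold change of -0.16. None passed the edgeR test, where 3 had an unadjusted p under 0.05, as did 2328 of all 12843 genes tested. These were Mmp1a, lower without asparagine, and Mmp15 and Mmp24, which were higher. Mmp15 had from 6 to 13 reads in a library and Mmp24 from 9 to 21. The DESeq2 Wald test called 1 of the 8, Mmp1a, and limma-voom 0 of them. The most abundant was Mmp1b. The 10 that did not pass the filter had at most 10 reads over the 4 libraries together, and Mmp7 and Timp4 had 0 reads in every library, which allows up to 0.164 CPM in the shallowest one.

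Genes that activate, inhibit or bind MMPs were tested in the same fit. Of 24 such genes, 16 passed the filter, 2 rose and 2 fell, which is 4 genes where 1.85% of all genes were called, and the median log2 fold change was -0.10. This list, and those of regulators and matrix genes below, were chosen with earlier results of these data known. Their counts are therefore given as a description only. Serpinb2, which encodes an inhibitor of plasminogen activators, was among those higher without asparagine. Reck, a membrane-anchored inhibitor of several MMPs, and Serpine2, an inhibitor of thrombin and of plasminogen activators, were lower. Plasmin, the product of plasminogen activators, is a known activator of MMP proenzymes.

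Serpinb2 averaged 2.45 ± 0.388 CPM without and 0.460 ± 0.0566 CPM with asparagine (SD, n = 2 each), and its log2 fold change was 2.40 ± 0.32 (SE, edgeR adjusted p = 0.0209). Reck averaged 6.62 ± 0.502 CPM without and 13.6 ± 0.496 CPM with asparagine, a log2 fold change of -1.03 ± 0.15 (edgeR adjusted p = 0.0244). Serpine2 averaged 92.0 ± 14.9 CPM without and 176 ± 5.43 CPM with asparagine, a log2 fold change of -0.94 ± 0.13 (edgeR adjusted p = 0.0243). With either library with asparagine left out the calls of Serpinb2, Reck and Serpine2 were lost, at edgeR adjusted p from 0.117 to 0.186. Cd44, which docks Mmp9 at the cell surface and was the most abundant of these genes, had 858 ± 78.8 CPM without and 925 ± 7.31 CPM with asparagine (edgeR adjusted p = 0.638).

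Of 22 genes known to regulate MMP genes, 21 for transcription factors and Nfkbia for an inhibitor of NF-kB, all 22 passed the filter and 1 fell, where 1.85% of all genes were called. This was Etv1, an ETS factor of the PEA3 group, with 74.0 and 86.4 CPM without asparagine, against 133 and 129 CPM with asparagine. The groups did not overlap (log2 fold change -0.71 ± 0.12 SE, edgeR adjusted p = 0.0368). The call was lost without library A with asparagine (-0.69) and without library B with asparagine (-0.73), where the spread came from the asparagine-free pair alone. None of the 7 subunits of AP-1 (Fos, Fosb, Fosl1, Fosl2, Jun, Junb and Jund) passed the edgeR test, nor the DESeq2 Wald test or limma-voom, and 3 had an unadjusted p under 0.05 in edgeR, as did 2328 of all 12843 genes tested. Their log2 fold changes ran from -0.58 for Fosb to 0.58 for Junb, with 5 above 0 and 2 below. These subunits were not counted apart under the other alternatives. Without a low-count filter 7 of the 22 regulators were called, where 1334 of all genes were. Ets1, the most abundant factor of the list, had 252 and 388 CPM without asparagine, against 336 and 344 CPM in those with it. The log2 fold change of -0.09 ± 0.19 was 0.19 with asparagine-free library A left out and -0.43 with asparagine-free library B left out.

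Of 25 matrix genes whose products MMPs cut or that build the same matrix, 18 passed the filter, 4 rose and 1 fell, with a median log2 fold change of 0.14. Over all genes tested 0.771% rose and 1.07% fell, but this list was chosen with earlier results of these data known. Those that rose included Lamb3 and Lama3, which encode laminin chains of basement membranes, and Thbs1, the gene for thrombospondin-1. Spp1, the gene for the secreted matrix protein osteopontin, fell. Fn1, the fibronectin gene and the most abundant of the list, had 1863 ± 148 CPM without and 1715 ± 2.91 CPM with asparagine (SD, n = 2 each, edgeR adjusted p = 0.603).

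Lamb3 averaged 66.2 ± 4.95 CPM without and 26.2 ± 1.99 CPM with asparagine (SD, n = 2 each), and its log2 fold change was 1.33 ± 0.12 (SE, edgeR adjusted p = 0.00678). Lama3 averaged 46.1 ± 1.26 CPM without and 21.1 ± 1.28 CPM with asparagine, a log2 fold change of 1.13 ± 0.11 (edgeR adjusted p = 0.00799). Thbs1 averaged 189 ± 7.63 CPM without and 92.9 ± 2.35 CPM with asparagine, a log2 fold change of 1.02 ± 0.10 (edgeR adjusted p = 0.00778). Spp1 averaged 539 ± 54.5 CPM without and 1323 ± 16.8 CPM with asparagine, a log2 fold change of -1.30 ± 0.12 (edgeR adjusted p = 0.00678). The Lama3 call was lost without library B with asparagine (1.06, adjusted p = 0.0943), and that of Thbs1 without either library with asparagine (adjusted p from 0.104 to 0.115). Those of Lamb3 and Spp1 were kept with each of the 4 libraries left out.

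For the genes at both ends of the range, the genes most like them across the 4 libraries were looked up among 9348 tested genes of at least 5 CPM. Likeness was the Euclidean distance between log2 CPM values, each gene centred on its own mean. The nearest to Mmp3 were Itgb2 (distance 0.252), an integrin chain of leukocytes, Tslp (0.256), a cytokine of epithelial cells, and Sema4c (0.271), a semaphorin. Among the nearest to Mmp9 were Vdr (0.251), the vitamin D receptor gene, and C3 (0.261), the complement gene. Itgb2 had 11.6 and 13.4 CPM without asparagine, against 38.5 and 37.1 CPM with it. Vdr had 14.4 and 20.9 CPM without asparagine, against 9.16 and 8.34 CPM with it, and library B without asparagine was the highest, as for Mmp9. With 4 libraries and 2 groups such distances only describe these libraries.

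MMPs are also made in quantity by fibroblasts and by myeloid cells, so markers of those cells were counted. In bulk RNA, fewer cells of a type and less RNA per cell cannot be told apart. The 12 fibroblast markers summed to 20.1 and 24.9 CPM without asparagine, against 44.1 and 42.0 CPM with asparagine, and of the 2 that passed the filter, Pdgfra and Postn, Pdgfra was called, as lower. Without Pdgfra, the other 11 summed to 1.96 and 2.10 CPM without asparagine and 1.345 and 1.33 CPM with it, and Thy1 had 0 reads in every library. Postn alone had 1.04 and 0.850 CPM without asparagine, against 0.126 and 0.200 CPM with it (edgeR adjusted p = 0.0609). Of 12 macrophage and neutrophil markers, 10 were in the table and 3 passed the filter, Cd68, Csf1r and Cd14, none of which was called. The 10 had sums from 11.9 to 13.2 CPM without and from 11.3 to 11.7 CPM with asparagine. Fcgr3 had 0 reads in every library, and Lyz2, S100a9 and Tyrobp had at most 1. The 10 endothelial markers summed to 5.56 and 4.34 CPM without and 5.46 and 6.10 CPM with asparagine.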

How the data were processed

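RNA of 4 libraries was profiled. A Qiagen kit gave the total RNA and NuGEN Ovation RNAseq V2 amplified it, per the labels' protocols. The submitters' processing notes name Bowtie2, HTSeq and mm10. Versions, settings, annotation and strandedness were not given in the sources used here. Values deposited by the authors were raw counts of reads per gene symbol, and columns were matched to samples by the sample descriptions. The 5 HTSeq summary rows took from 60.1% to 70.0% of reads (the widest 95% Wilson interval spanned 0.0252 percentage points, counting error only) and were left out.

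Genes were kept by filterByExpr (minimum count 10, minimum total count 15), scaled by TMM and tested on the group alone with edgeR 4.0.16 (R 4.3.3), with p-values adjusted over all 12843 genes by the Benjamini-Hochberg method at 0.05. The SE is the log2 fold change over the square root of F. For distances, 0.5 CPM was added before log2. Lengths, positions and exon overlaps are from GENCODE M21, and promoters from RefSeq. The members and lists were chosen with earlier results of these data known. Every called gene of a list, up to 6, and its most abundant gene are named, with the 3 genes nearest in pattern to the members of lowest and highest fold change, other genes having been chosen after their values were seen. Of the genes this rule names, 2 are not reported here. Alternatives were other scalings (DESeq2 1.42.0 size factors, upper quartile), the DESeq2 Wald test, limma-voom (limma 3.58.1), other filters, the letter as a block, the 10 most abundant genes left out, and each library left out in turn, whose group then had a single library assumed to vary like the other group. The fit was also run on simulated counts with the same spread in both groups, unlike these libraries, and no result here rests on that run.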

Additional observations from a re-analysis of the deposited data

How the results depend on the processing

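The letters A and B are not said to pair libraries. The A minus B differences of the groups correlated by 0.13 over tested genes. With the letter as a replicate block 816 genes were called, against 237 without it, and 464 were called with the DESeq2 Wald test and 1334 without a low-count filter. With 1 library left out the count ran from 48 to 5363. With all libraries kept, members past the threshold numbered 2, but 3 without a filter and with the replicate block, where Timp1 was added. With asparagine-free library A left out Timp1 and Timp3 were added, at log2 fold changes of 0.33 and -1.69. With asparagine-free library B left out Timp1 and Timp2 were added, at 0.60 and -0.23. Both of these fits took their spread from the pair with asparagine alone. With library A or library B with asparagine left out Mmp9 was no longer past the threshold, at log2 fold changes of 1.17 and 1.24. Those fits took their spread from the asparagine-free pair, whose libraries differed more from each other. The chi-square of their read counts per degree of freedom was 34.8, against 3.89 for the pair with asparagine. Other MMP and TIMP genes called numbered 0, but 1 with the DESeq2 Wald test, without a filter and with the replicate block, and 0 to 2 with a library left out. Called MMP gene regulators numbered 1, but 2 with the DESeq2 Wald test, 7 without a filter and 4 with the block, and 0 to 11 with a library left out. Activators and inhibitors called, 4 in the report, ran from 0 to 10 and matrix substrates, 5 in the report, from 2 to 13 with a library left out.

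Over 28 genes and the 8 alternatives that kept all libraries, 0 of 220 fold changes turned sign, 0 called ones were lost and 9 gained a call. With a library left out 4 of 112 turned sign, 19 lost a call and 12 gained one. The sign turned for Mmp14 with asparagine library B left out (0.019, range -0.17 to 0.019). It turned for Timp3 with asparagine-free library B (0.54) or asparagine library A (0.089) left out (range -1.69 to 0.54). It also turned for Ets1 with asparagine-free library A left out (0.19, range -0.43 to 0.19). The cause was not tested. Depth limits Mmp2 and Timp3, with 29 and 101 reads in all.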
